A study of Mus musculus with 6 samples.

Results

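The insulin-like growth factor (IGF) system was examined in RNA sequencing libraries of mouse T cells grown together with ID8, an ovarian cancer line of the mouse. The set comprises 10 genes, taken by name from the 54532 genes of the deposited expression table: the ligands Igf1 and Igf2, the receptors Igf1r and Igf2r, and the binding proteins Igfbp2, Igfbp3, Igfbp4, Igfbp5, Igfbp6 and Igfbp7. In 3 libraries the ID8 partner cells had first received 40 µM cisplatin (cisplatin, labelled CIS), and in the other 3 they had received PBS (control, labelled WT). In both groups, pan-T cells had been isolated from the spleens of C57BL/6 mice a few weeks old, kept with IL-2 and pre-activated with anti-CD3/CD28 beads before co-culture. The mice carry no engineered allele according to the labels and methods, and the label WT stands here for the PBS arm. The study calls the libraries of a group independent samples and biological replicates, without saying whether they came from separate mice or separate cultures, so the p-values measure the spread between these libraries, whatever its source. How T cells were parted from ID8 cells before RNA was extracted is not given in the sources used here.

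The system works through secreted ligands that bind a receptor tyrosine kinase, the product of Igf1r, which signals through insulin receptor substrates to PI3K, AKT and mTOR. The product of Igf2r, also known as the cation-independent mannose-phosphate receptor, has no kinase and takes IGF-II to the lysosome. IGF-binding proteins are secreted mainly by stromal, epithelial and mesothelial cells, hold the ligands in the extracellular space and release them when proteases cleave the binding protein. T cells are known to carry IGF-I receptors, while most binding proteins are not usual T-cell products.

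Of the 10 genes, 6 reached the mean of 0.5 FPKM (fragments scaled by gene length and by a total for each library) over the 6 libraries that was required for a test. Igfbp3, Igfbp6 and Igfbp7 fell in the cisplatin libraries by more than 2-fold. Igf1r, Igf2r and Igfbp4 were also lower, by less than 2-fold, and their direction reversed when the libraries were centred on ID8 tumour genes, a scale on which 86.5% of all genes tested were called higher. For all 6 genes every cisplatin library lay below every control library, as for 32.3% of all genes tested. The ligands, Igfbp2 and Igfbp5 were near 0 in both groups and were not tested.

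The promoters of the 3 binding-protein genes that fell by more than 2-fold are shown so that their upstream sequences can be compared. The genes were picked by that fall, and whether they share a control was not tested. All 10 genes had at least 1 entry among the 32851 promoter windows of RefSeq on GRCm38.p6, and the 250 bases before the RefSeq start site are printed 5′ to 3′ on the strand of the gene. Igfbp7 is taken from the minus strand at chr5:77408046-77408295, Igfbp3 from the minus strand at chr11:7213924-7214173 and Igfbp6 from the plus strand at chr15:102143936-102144185. Capitals mark matches on either strand to the motifs searched, which were GGGCGG (the Sp1 GC box), TATAAA (the TATA box), ACGTG and GCGTG (forms of the HIF core), TGANTCA (AP-1) and GGAATG (TEAD).
Igfbp7: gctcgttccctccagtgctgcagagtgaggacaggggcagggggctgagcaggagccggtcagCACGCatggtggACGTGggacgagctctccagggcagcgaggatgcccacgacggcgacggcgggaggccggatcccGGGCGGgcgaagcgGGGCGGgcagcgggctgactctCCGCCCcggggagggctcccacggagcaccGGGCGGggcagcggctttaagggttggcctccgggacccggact
Igfbp3: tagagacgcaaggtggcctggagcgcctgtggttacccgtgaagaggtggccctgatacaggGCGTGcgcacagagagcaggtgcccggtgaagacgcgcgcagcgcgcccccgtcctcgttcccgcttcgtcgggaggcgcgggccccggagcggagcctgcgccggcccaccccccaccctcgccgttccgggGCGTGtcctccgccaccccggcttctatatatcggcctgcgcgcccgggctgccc
Igfbp6: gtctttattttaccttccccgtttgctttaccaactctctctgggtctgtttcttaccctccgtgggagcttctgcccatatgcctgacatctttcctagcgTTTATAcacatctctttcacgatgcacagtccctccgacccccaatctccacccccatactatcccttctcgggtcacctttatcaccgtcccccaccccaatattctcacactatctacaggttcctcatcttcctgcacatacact

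The Igfbp7 window held 4 matches to GGGCGG, of which 3 read forward, starting at -110, -96 and -44, and 1 read in reverse, at -74, counted from the start site as 0. It also held ACGTG at -175 and GCGTG, in reverse, at -187. The Igfbp3 window held GCGTG at -188 and -55 and none of the other motifs searched. The Igfbp6 window held TATAAA in reverse at -148 and no other match. None of these matches overlapped another. Over all promoter windows of this length, 32.7% held GGGCGG, 12.4% TATAAA, 16.6% ACGTG, 28.2% GCGTG, 6.75% TGANTCA and 12.6% GGAATG. G and C made up 74.0% of the Igfbp7 window, 73.2% of the Igfbp3 window and 49.6% of the Igfbp6 window, against a median of 52.4% over all windows. No motif was shared by all 3 windows. The RefSeq start site of Igfbp6 lies 176 bases before the start of the gene in the deposited table, whereas those of Igfbp7 and Igfbp3 lie 4 and 0 bases from it.

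Each library held between 30606569 and 32169496 reads on genes, rebuilt from the FPKM values, and no library stood apart in depth. Between cisplatin and control, 2034 of 15874 genes tested (12.8%) were called lower and 653 (4.11%) higher by limma, where a call needed an adjusted p (Benjamini-Hochberg) under 0.05 together with a 2-fold difference. On adjusted p alone, 4603 genes (29.0%) were lower and 4360 (27.5%) higher, so a small difference past the test was common. All 22 genes of a list for T cells, the labelled cell type, were present in both groups. They rose in the cisplatin libraries by 0.19 to 0.89 on the log2 scale, past the test on adjusted p and short of the fold threshold. The T-cell sum ran from 1904 to 2026 FPKM in control and from 3044 to 3110 FPKM in cisplatin. Genes of other cells were present too, so the libraries were mixed. All 10 genes of a B-cell list were measured and rose, with the immunoglobulin gene Ighm at 1433 ± 38.0 FPKM in control and 3220 ± 46.7 FPKM in cisplatin (SD, n = 3). The B-cell sum, most of it Ighm, ran from 1700 to 1787 FPKM in control. In cisplatin it ran from 3638 to 3711 FPKM, above the T-cell sum. The summed level of 12 myeloid genes ran from 66.7 to 70.9 FPKM in control and from 130.1 to 149.5 FPKM in cisplatin. Of the myeloid genes 11 were tested, and 7 were called higher and none lower. On adjusted p alone 8 were higher and 1 lower. Lyz2 rose from 30.8 ± 1.81 to 89.7 ± 9.31 FPKM, whereas Cd14 fell from 7.43 ± 0.59 to 5.35 ± 0.46 FPKM on adjusted p alone and Cd68 was at 24.1 ± 0.99 and 24.2 ± 1.98 FPKM. Of 20 genes that mark ID8 or mesothelial tumour cells, 16 were tested, 14 were called lower and none higher. Their summed level ran from 1703 to 1774 FPKM in the control libraries and from 270.1 to 276.3 FPKM in the cisplatin libraries. In bulk RNA, fewer cells of a type and less RNA per cell cannot be told apart.

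Igfbp7, a secreted binding-protein relative with low affinity for IGFs, had the highest level of the 10 genes in control. It lies at chr5:77349240-77408041 on the minus strand. Its level was 190, 207 and 185 FPKM in the control libraries and 24.4, 23.5 and 22.2 FPKM in the cisplatin libraries. Every cisplatin library therefore lay far under every control library, and the groups did not come near each other. The mean was 194 ± 11.5 FPKM in control and 23.3 ± 1.12 FPKM in cisplatin (SD, n = 3), that is, 12.1% of the control level was left. The log2 fold change was -3.05 (SE 0.05, 95% interval -3.18 to -2.91, limma adjusted p = 1.2e-07). These values rested on 6850 to 7487 reads a library in control and 868 to 954 in cisplatin. By level, Igfbp7 stood 170th among the 15874 genes tested in control and 2346th in cisplatin. Its last 85 bases overlap Polr2b, an RNA polymerase II subunit gene on the other strand, which was at 21.2 ± 0.31 FPKM in control and 21.1 ± 0.61 FPKM in cisplatin (SD, n = 3).

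Igfbp6, which binds IGF-II in preference to IGF-I, was the next binding protein by level in control. The gene lies at chr15:102144362-102149511 on the plus strand. The control libraries held 46.8, 47.5 and 45.5 FPKM and the cisplatin libraries 9.42, 9.80 and 8.85 FPKM. The spread within either group was small beside the gap between them. The mean was 46.6 ± 0.998 FPKM in control and 9.36 ± 0.48 FPKM in cisplatin (SD, n = 3), and 20.1% of the control level was left. The log2 fold change was -2.30 (SE 0.05, 95% interval -2.42 to -2.19, limma adjusted p = 1.5e-07). The study itself took Igfbp6, Igfbp5 and Sparc to mark tumour cells in its mouse single-cell data.

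Igfbp3, whose protein carries most of the IGF in blood together with the acid-labile subunit, showed the greatest log2 change of the 6 genes tested at the pseudocount of 0.1, and Igfbp7 did at a pseudocount of 1. It lies at chr11:7206086-7213923 on the minus strand, 3539 bases from Igfbp1, a liver-type binding protein that was at 0 reads in all 6 libraries. Its level was 7.48, 8.68 and 8.61 FPKM in control and 0.681, 0.868 and 0.690 FPKM in cisplatin. The lowest control library was above the highest cisplatin library by a wide margin. The mean was 8.26 ± 0.67 FPKM in control and 0.746 ± 0.11 FPKM in cisplatin (SD, n = 3), and 9.04% of the control level was left. The log2 fold change was -3.31 (SE 0.12, 95% interval -3.60 to -3.02, limma adjusted p = 1.7e-06). The cisplatin values rested on 69, 90 and 70 reads and the control values on 703, 815 and 827 reads, so the counting error is larger here than for Igfbp6 or Igfbp7. With a pseudocount of 1 in place of 0.1 the log2 fold change was -2.41, beside -2.998 for Igfbp7, and the cisplatin level of Igfbp3 is itself under 1 FPKM.

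Igfbp4, a binding protein that mostly holds IGFs back from the receptor and is known in naive mouse T cells, moved much less. It lies at chr11:99041244-99054392 on the plus strand. The control libraries held 11.4, 13.0 and 12.7 FPKM and the cisplatin libraries 8.17, 8.41 and 8.59 FPKM. The groups did not overlap, and 67.8% of the control level was left. The mean was 12.4 ± 0.81 FPKM in control and 8.39 ± 0.21 FPKM in cisplatin (SD, n = 3). The log2 fold change was -0.55 (SE 0.06, 95% interval -0.69 to -0.41, limma adjusted p = 2.5e-04), which passed the test and not the fold threshold. The interval did not reach those of Igfbp3, Igfbp6 and Igfbp7.

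**Figure D1:**
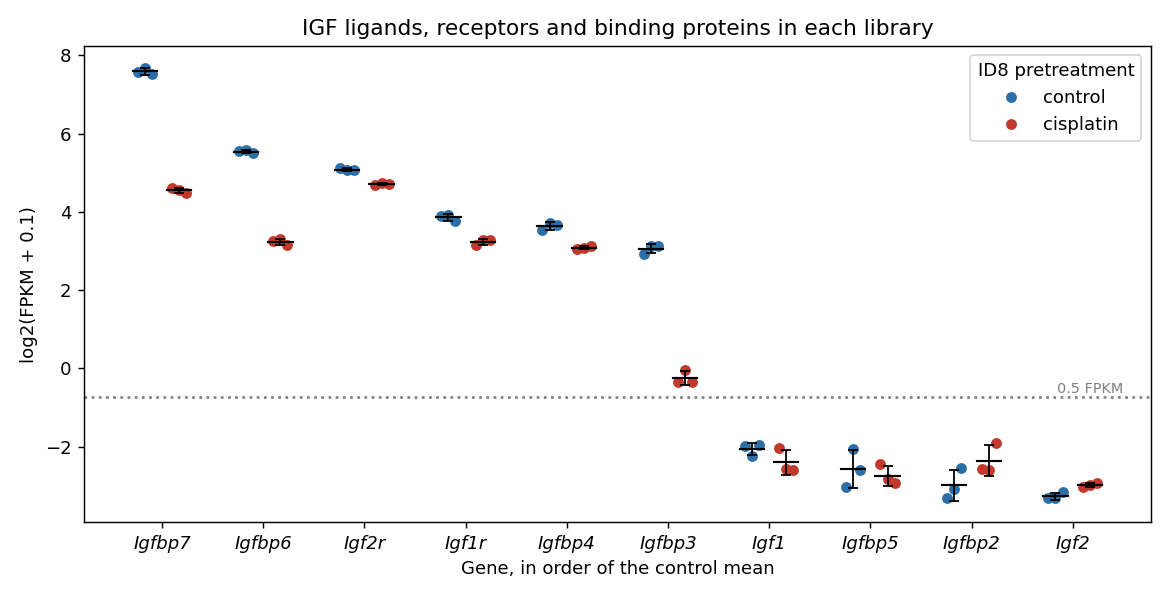
The points give log2(FPKM + 0.1) of each of the 10 genes (x axis, in order of the control mean) in the 3 control libraries (blue) and the 3 cisplatin libraries (red), with the mean and SD as black bars and a dotted line at 0.5 FPKM. Igfbp7, Igfbp6 and Igfbp3 show the widest gaps, from 194 to 23.3, from 46.6 to 9.36 and from 8.26 to 0.746 FPKM, while the 4 genes at the right stay under the line in all libraries.

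Because the binding proteins did not fall by the same factor, the makeup of their transcripts differed between the groups. The summed FPKM of the 6 binding-protein genes was 255.5, 275.8 and 251.6 in the control libraries and 42.8, 42.7 and 40.5 in the cisplatin libraries. Igfbp7 made up 74.2% ± 0.75 of this sum in control and 55.6% ± 1.21 in cisplatin (SD, n = 3). Igfbp4 made up 4.74% ± 0.29 in control and 20.01% ± 1.10 in cisplatin, although its own level was lower in cisplatin on the deposited scale. Igfbp6 held 17.9% ± 0.58 and 22.3% ± 0.59. Igfbp3 held 3.17% ± 0.25 and 1.78% ± 0.23. None of these 4 shares overlapped between the groups. Of all single genes tested, 32.3% lay wholly lower and 31.9% wholly higher in cisplatin. An exact permutation test of 3 against 3 libraries cannot go below p = 0.1, so no test is given for the shares. Shares of this kind do not depend on a factor that scales a whole library.

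**Figure D2:**
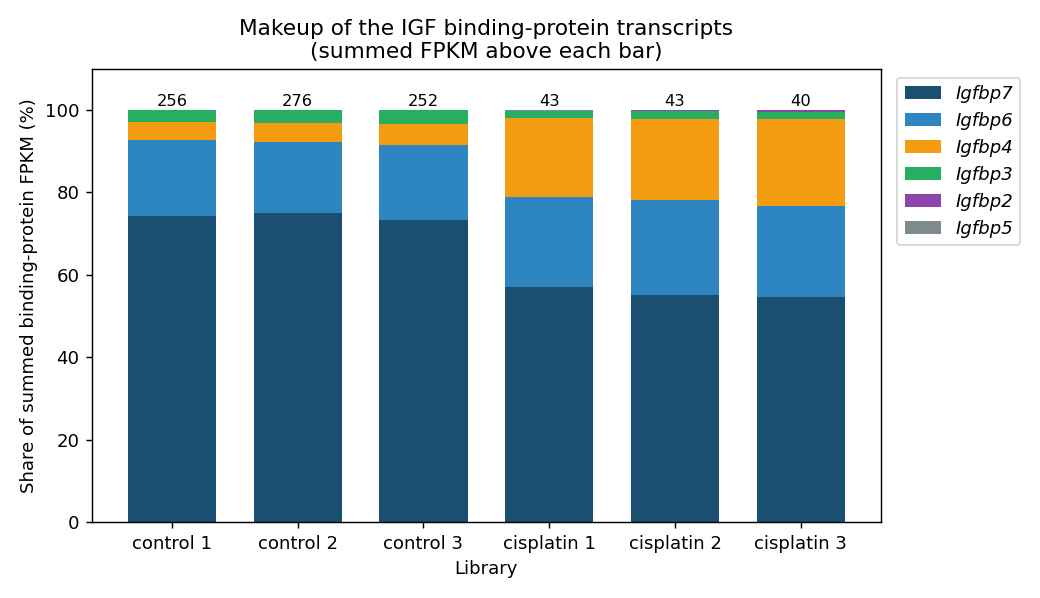
Each bar is a library (x axis) and its colours give the share of the summed FPKM of the 6 binding-protein genes (y axis, %), with the sum above the bar. Igfbp4 (orange) takes 4.48% to 5.05% of the control bars and 19.1% to 21.2% of the cisplatin bars, while the sum falls from at least 251.6 to at most 42.8 FPKM.

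Igfbp2 and Igfbp5, neighbours on chromosome 1 with 5457 bases between them, were near 0. Igfbp2, at chr1:72824503-72852474 on the plus strand, had 0, 1 and 4 reads in the control libraries and 4, 4 and 10 reads in the cisplatin libraries. Igfbp5, at chr1:72857932-72874884 on the minus strand, had 4, 25 and 12 reads in control and 16, 8 and 6 in cisplatin. Both groups overlapped for either gene. In FPKM, Igfbp5 averaged 0.0754 ± 0.06 in control and 0.0511 ± 0.03 in cisplatin (SD, n = 3), far below Igfbp6 and Sparc, which the study used beside it as tumour-cell markers. With no filter on low values, the adjusted p was 0.23 for Igfbp2 and 0.74 for Igfbp5 by limma, and with voom on the rebuilt reads it was 0.78 for Igfbp5. No difference passed the test.

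The receptors were both well expressed and differed less than the binding proteins. Igf1r, the receptor tyrosine kinase for IGF-I and IGF-II, lies at chr7:67952827-68233668 on the plus strand. Its level was 14.8, 14.98 and 13.5 FPKM in the control libraries and 8.74, 9.69 and 9.57 FPKM in the cisplatin libraries. All cisplatin values were under all control values. The mean was 14.4 ± 0.84 FPKM in control and 9.33 ± 0.52 FPKM in cisplatin (SD, n = 3), with 64.7% left. The log2 fold change was -0.62 (SE 0.06, 95% interval -0.77 to -0.47, limma adjusted p = 2.0e-04), short of the fold threshold.

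Igf2r, the scavenging receptor for IGF-II, lies at chr17:12682406-12769664 on the minus strand. It held 34.7, 33.3 and 33.6 FPKM in control and 25.5, 26.6 and 26.3 FPKM in cisplatin. The groups were apart, by less than for Igf1r, and 77.2% of the control level was left. The log2 fold change was -0.37 (SE 0.03, 95% interval -0.45 to -0.29, limma adjusted p = 1.1e-04), also short of the fold threshold. In mice Igf2r is expressed from the maternal allele, and Airn, a non-coding RNA transcribed from its antisense strand on the paternal allele, shares 28354 bases of the locus with it. Airn was at 2.46 ± 0.50 FPKM in control and 2.07 ± 0.10 FPKM in cisplatin (SD, n = 3), with a log2 fold change of -0.22 (limma adjusted p = 0.25). The sources used here do not say that reads were counted by strand, so reads of the shared stretch cannot be assigned to one or the other for sure.

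The ratio of Igf2r to Igf1r was 2.34, 2.22 and 2.49 in the control libraries and 2.92, 2.75 and 2.75 in the cisplatin libraries, so that these ratios did not overlap. A gap of this kind was common, as 31.9% of all genes tested lay wholly higher and 32.3% wholly lower in cisplatin. The ratio of the summed binding proteins to the summed receptors ran from 5.16 to 5.72 in control and from 1.13 to 1.25 in cisplatin. Binding-protein transcripts thus outweighed receptor transcripts in all 6 libraries, by less in cisplatin.

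The ligands were hardly measured. Igf1, the main ligand of the IGF-I receptor, lies at chr10:87858265-87937042 on the plus strand. It had 45, 33 and 48 reads in the control libraries and 46, 22 and 21 in the cisplatin libraries. The groups overlapped through the first cisplatin library. The mean was 0.140 ± 0.03 FPKM in control and 0.0920 ± 0.04 FPKM in cisplatin (SD, n = 3), below the level required for the test. With limma's voom on the rebuilt reads, where Igf1 passed the filter, the adjusted p was 0.20, and without a filter on low values it was 0.49.

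Igf2, the fetal growth factor, lies at chr7:142650766-142666816 on the minus strand. It had 0, 0 and 2 reads in control and 4, 5 and 6 reads in cisplatin. These groups do not overlap, but they differ by a handful of reads, and of the genes tested 31.9% had all cisplatin libraries above all control libraries (32.3% below). Without a filter on low values the limma adjusted p was 0.20. The gene shares 16048 bases of its strand with the protein-coding gene Gm49394, which was listed at 0 in all libraries, and how reads on both were counted is not given in the sources used here. H19, the imprinted non-coding neighbour of Igf2, had 0 reads in each cisplatin library and 0, 2 and 2 reads in control.

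The order of the 10 genes by level changed between the groups. In control it ran Igfbp7, Igfbp6, Igf2r, Igf1r, Igfbp4, Igfbp3, Igf1, Igfbp5, Igfbp2 and Igf2, and each of the first 6 was above the next gene in all libraries, while the levels from Igf1 downwards overlapped their neighbours. In cisplatin Igf2r came first at 26.1 ± 0.57 FPKM (SD, n = 3), ahead of Igfbp7. There Igfbp6 and Igf1r, at 9.36 ± 0.48 and 9.33 ± 0.52 FPKM, overlapped, and the levels of Igfbp2, Igf1, Igfbp5 and Igf2 each overlapped the next. Igfbp3 remained in sixth place in both groups.

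Of the 10 genes 6 were tested, and of these 3 were called lower and none higher, against 12.8% and 4.11% of all genes tested. On adjusted p alone, all 6 tested were lower (29.0% of all genes tested were lower and 27.5% higher). The median log2 fold change of the 6 was -1.46, with all genes tested at 0.03. Across the 4 binding proteins tested the median was -2.68, and across both receptors -0.50.

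Most tested tumour-cell genes fell by more than 2-fold, as did Igfbp3, Igfbp6 and Igfbp7 but not Igfbp4. The part of tumour cells in the result was not tested. Of the 16 tested genes of the ID8 list, the median log2 fold change was -2.36, from -3.61 (the keratin gene Krt19) to -0.08 (Epcam). Krt8 and Krt18, keratins of simple epithelium, changed by -2.26 and -2.67, Sparc by -2.86, the mesothelial gene Msln by -2.07 and the mesothelial transcription factor gene Wt1 by -3.25. Igfbp3 and Igfbp7 lay near the lower end of this range, with 2 and 3 genes of the list lower than they were, and Igfbp6 lay in its middle, with 9 lower and 7 higher. For Igf1r, Igf2r and Igfbp4, 15 of the 16 were lower. The summed level of the list in cisplatin was 15.6% of that in control, and the summed binding proteins stood at 16.1%. Krt19 was the largest part of the first sum and Igfbp7 of the second. The tested binding proteins did not fall by one factor, and kept from 9.04% (Igfbp3) to 67.8% (Igfbp4) of the control level.

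Set against the summed ID8 list of the same library, Igfbp6 was at 2.67% ± 0.002 of that sum in control and 3.43% ± 0.17 in cisplatin (SD, n = 3), so on this measure it was the higher in cisplatin. That sum leans on Krt19, its largest gene, at 646 FPKM in control and 52.9 FPKM in cisplatin. With centring on the ID8 list, where each gene counts alike, the log2 fold change of Igfbp6 was -0.13. As a share of the sum, Igfbp7 was lower in cisplatin, at 11.1% ± 0.46 and 8.57% ± 0.33, as was Igfbp3, at 0.474% ± 0.04 and 0.274% ± 0.04. Igf1r, by contrast, was at 0.827% ± 0.03 of the sum in control and 3.43% ± 0.23 in cisplatin, and Igf2r at 1.94% ± 0.06 and 9.60% ± 0.32. Set against the summed T-cell list instead, both receptors were lower in cisplatin, with Igf1r at 0.732% ± 0.06 and 0.303% ± 0.01 and Igf2r at 1.72% ± 0.09 and 0.850% ± 0.01.

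Other cell types that make binding proteins were checked in the same way. Of 7 fibroblast genes only Dcn (-2.37) was called, Col1a1 was lower by 0.72 on the log2 scale, the other 5 were below the level required for a test, and Col3a1 was at 0 reads in all libraries. The summed fibroblast level ran from 41.0 to 42.6 FPKM in control and from 9.44 to 9.50 FPKM in cisplatin, most of it Dcn. Of 6 endothelial genes, Tek was called lower (-1.81), and on adjusted p alone Vwf was lower (-0.48) and Pecam1 higher (0.62), while Cdh5, Kdr and Emcn were under 0.5 FPKM in both groups. That summed level ran from 17.8 to 18.4 FPKM in control and from 23.0 to 23.4 FPKM in cisplatin, most of it Pecam1, which leukocytes also express.

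**Figure D3:**
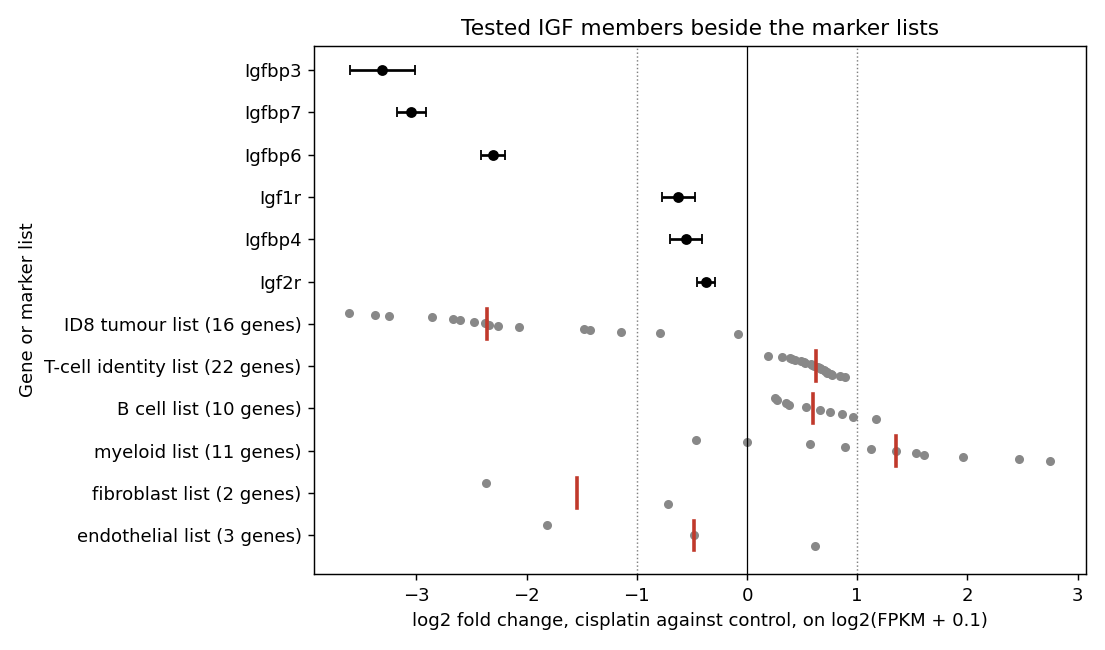
The x axis gives the log2 fold change of cisplatin against control, with 95% intervals for the 6 tested IGF genes (black) and single genes (grey points) with the list median (red bar) for each marker list. Igfbp3, Igfbp7 and Igfbp6, at -3.31, -3.05 and -2.30, lie within the spread of the ID8 tumour list, whose median is -2.36, while the T-cell identity list lies above 0; with centring on ID8 tumour genes Igf1r, Igf2r and Igfbp4 are higher in cisplatin.

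The sign of Igf1r, Igf2r and Igfbp4 depended on the scale on which libraries were compared. Centring adds the same value to every gene of a library, so it shifts all genes together and leaves the differences between them as they were. Centring on the T-cell identity genes shifted the median of all genes to -0.57 and gave -1.22 for Igf1r, -1.15 for Igfbp4 and -0.97 for Igf2r, so that 5 of the 6 genes were called lower, on a scale where 24.4% of all genes tested were. Centring on the ID8 tumour genes shifted the median to 2.20 and gave 1.55 for Igf1r, 1.62 for Igfbp4 and 1.80 for Igf2r, each called higher, as were 86.5% of all genes tested. On that scale Igfbp3 was still called lower (-1.13), as were 1.06% of all genes tested, Igfbp7 stood at -0.87 and Igfbp6 at -0.13 (limma adjusted p = 0.067). Relative to the median of all genes, Igf1r stood at -0.65, Igf2r at -0.40 and Igfbp4 at -0.58 with the deposited FPKM and with either centring.

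**Figure D4:**
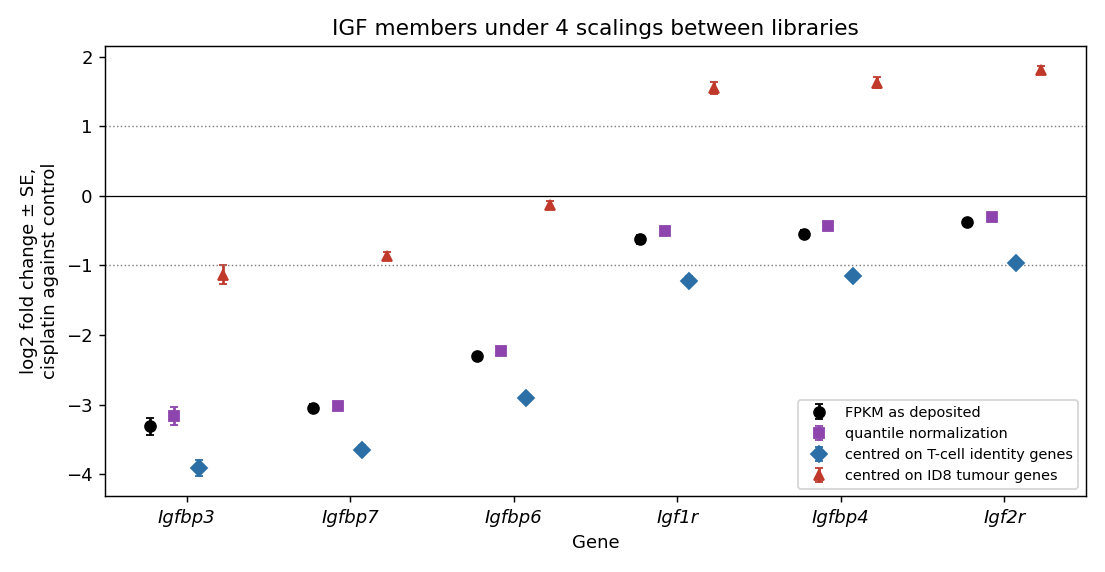
The y axis gives the log2 fold change ± SE of each of the 6 tested genes (x axis) with the deposited FPKM, with quantile normalization and with libraries centred on T-cell identity or on ID8 tumour genes. Igfbp3 stays below -1 on all 4 scales, from -3.91 to -1.13, whereas Igf1r, Igfbp4 and Igf2r are below 0 on 3 scales and between 1.55 and 1.80 with ID8 centring.

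Beyond the 10 genes, 53 other genes of the pathway were read from the same fit. Of the 39 tested, 13 were called lower and none higher (background 12.8% and 4.11%), and on adjusted p alone 24 were lower and 7 higher. Among the called genes, Irs1, Htra3 and Igf2bp1 reached the filter through control only, with cisplatin means under 0.5 FPKM. Across the 39 pathway genes, called or not, log2 changes had a median of -0.40, beside 0.03 for all genes tested.

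Among partners and proteases of the binding proteins, all 3 tested genes of 9 were called lower, beside 12.8% of all genes tested. Htra3 was tested only through its control level, with a cisplatin mean of 0.412 FPKM, so its call is no support for a share above that. Htra1, a secreted serine protease with an IGFBP-like domain, held 65.0, 67.2 and 65.4 FPKM in control and 19.5, 17.8 and 17.5 FPKM in cisplatin, a log2 fold change of -1.84 (SE 0.05). Its relative Htra3 changed by -3.21 (SE 0.20), and Stc2, a stanniocalcin that inhibits the IGFBP protease PAPP-A, by -1.85 (SE 0.17). Pappa, the gene of that protease, was at 0.0200 ± 0.02 FPKM in control and 0.0110 ± 0.01 FPKM in cisplatin (SD, n = 3) and was not tested.

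Secreted proteins that share the IGFBP domain moved the same way, with all 4 tested of 7 called lower (12.8% of all genes tested were). Ctgf, a matricellular protein gene and a target of YAP signalling, had the greatest change of the 39 genes, from 33.9 ± 1.04 FPKM in control to 1.76 ± 0.19 FPKM in cisplatin (SD, n = 3), a log2 fold change of -4.20 (SE 0.08). Kazald1 changed by -3.39 (SE 0.21), and Cyr61 and Wisp1, of the same family as Ctgf, by -2.08 (SE 0.15) and -2.08 (SE 0.12). Nov, another gene of that family, chosen after its values were seen, went the other way, with 0, 0 and 4 reads in control and 17, 18 and 18 reads in cisplatin, but was below the level required for a test.

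Insulin receptors and adaptors were mixed. Insr, the insulin receptor gene, was lower by 0.69 on the log2 scale (SE 0.04, limma adjusted p = 2.0e-05), from 9.18, 9.16 and 9.10 FPKM in control to 5.52, 5.65 and 5.70 FPKM in cisplatin. Irs1 encodes a docking protein of the insulin and IGF-I receptors. It fell from 0.969, 1.10 and 0.795 FPKM to 0.108, 0.076 and 0.071 FPKM (log2 fold change -2.51, SE 0.37). The mean of Irs1 over all libraries was 0.521 FPKM, just over the filter. Irs2, the other main docking protein and the one with by far the higher level here, was at 13.0 ± 0.53 FPKM in control and 12.1 ± 0.72 FPKM in cisplatin (SD, n = 3), with an interval of the log2 difference from -0.24 to 0.04 (limma adjusted p = 0.19). Gab1, an adaptor for PI3K, was called lower (-2.38, SE 0.12). With Irs1 this made 2 of the 8 tested called lower, beside 12.8% of all genes tested. As Irs1 reached the filter through control only, its call is no support for a share above that.

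In the PI3K, AKT and mTOR group all 20 genes were tested, and 2 were called lower, a share of the list no greater than the 12.8% over all genes tested: Eif4ebp1, a translation repressor that mTOR inactivates, at -1.64 (SE 0.05), and Pik3cb, a catalytic subunit of PI3K, at -1.13 (SE 0.09). On adjusted p alone 9 were lower, 6 higher and 5 did not pass, and the list's median was -0.11. The range over the 20 genes ran from -1.64 to 0.37 on the log2 scale.

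The IGF2 mRNA-binding proteins stabilise and transport Igf2 and other transcripts. Igf2bp2 fell from 7.95 ± 0.23 FPKM in control to 0.982 ± 0.02 FPKM in cisplatin (SD, n = 3), a log2 fold change of -2.89 (SE 0.07). Igf2bp1 fell from 2.19 ± 0.20 to 0.353 ± 0.12 FPKM, a change of -2.37 (SE 0.25). Igf2bp3 was at 0.408 ± 0.05 FPKM in control and 0.321 ± 0.08 FPKM in cisplatin and was not tested. Their target Igf2 was at the few reads given above in the same libraries.

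**Figure D5:**
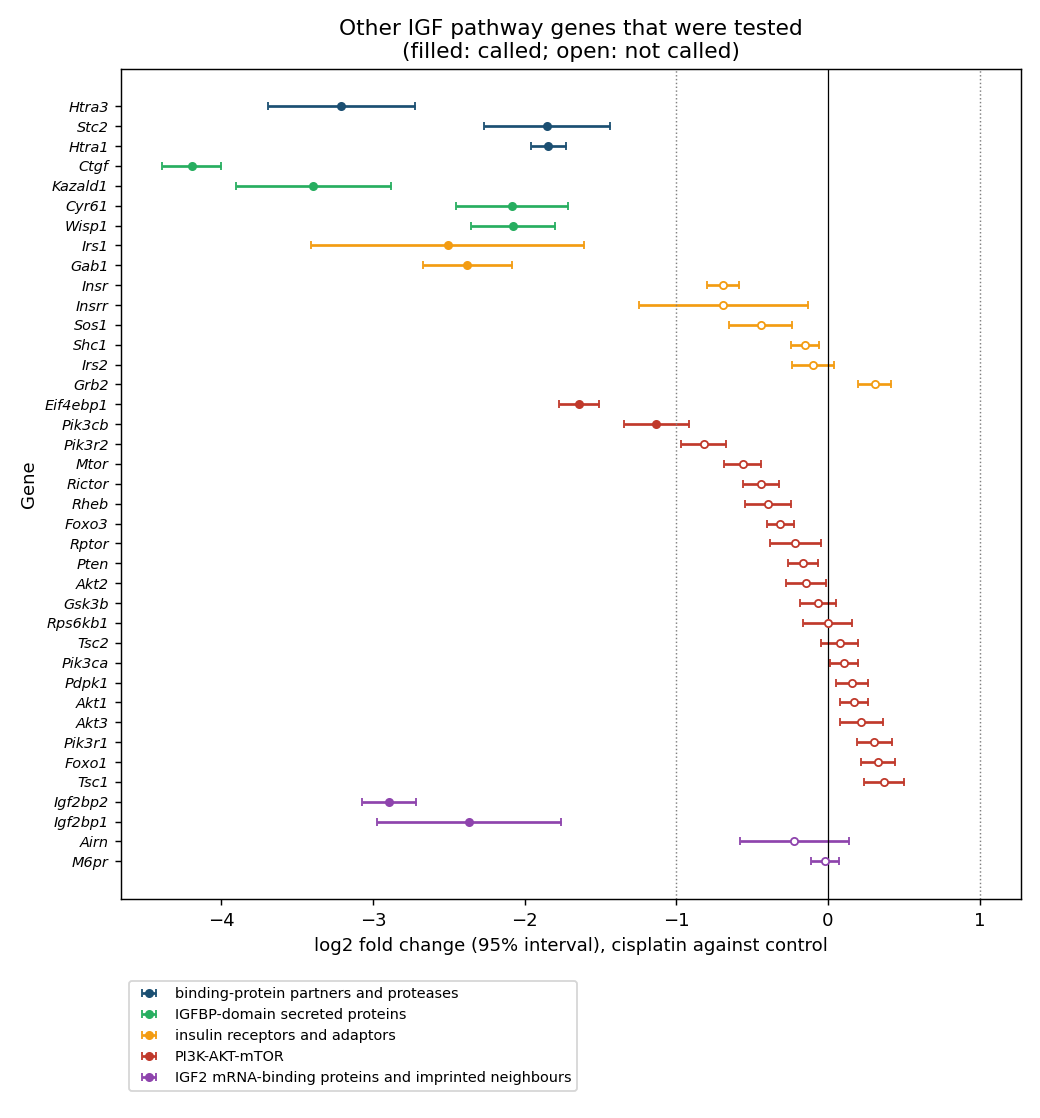
The x axis gives the log2 fold change with its 95% interval for each of the 39 other pathway genes tested (y axis), coloured by list, with filled points for called genes. The 13 filled points lie between -4.20 (Ctgf) and -1.13 (Pik3cb), and most of the PI3K, AKT and mTOR genes lie within 1 of 0 on the log2 scale.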

How the data were processed

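RNA of 6 libraries was sequenced from poly-A mRNA after random-hexamer priming. The authors deposited FPKM values per gene for all 6 libraries in a single table, with 0 further columns of samples. The submitters' processing notes name fastp, HISAT2 2.0.5, featureCounts 1.5.0-p3 and mm10, whereas the methods of the study name LifeScope for alignment and counting; strand-aware counting and the treatment of multiply matching reads are not given in the sources used here. Coordinates of all 10 genes equal those of GENCODE M21 (GRCm38).

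Values were tested as log2(FPKM + 0.1) with limma 3.58.1 (trend) in R 4.3.3, over the 15874 genes that averaged 0.5 FPKM or more. A fold change on this scale understates the change of low genes. Reads were rebuilt as FPKM times gene length over the step of each library, within 0.1 of a whole read. Read numbers cover counting error only. The total implied by the FPKM scale was 1.03 to 1.05 times the rebuilt reads in the cisplatin libraries. In the control libraries it was 0.976 to 0.982 times, so this factor differed between the groups. With voom on the rebuilt reads, which leaves it out, the log2 fold change of Igf2r was -0.29, beside -0.37. Genes at or under 3 reads in both groups, or below the filter, got no fold change. The steps were tested on simulated data. All 10 genes were named, together with called pathway genes whose higher group averaged 1 FPKM or more (at most 12, by size of change) and a preset list of relatives; marker genes were named beside them. The genes and lists were chosen with earlier results of these data known. Alternatives were other pseudocounts, filters, scalings, voom, leaving out each library and a replicate block. Figures were drawn in matplotlib 3.10.9 (python 3.11.15).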

Additional observations from a re-analysis of the deposited data

How the results depend on the processing

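Igfbp3, Igfbp6 and Igfbp7 were called lower under all alternatives, except that with centring on ID8 tumour genes Igfbp6 (-0.13) did not pass the test and Igfbp7 (-0.87) missed the fold threshold (limma adjusted p 0.067 for Igfbp6, against 1.3e-15 to 1.9e-05 under the others; Igfbp3 could not be tested at a mean of at least 5 FPKM). Without that centring, the log2 fold changes ran from -3.91 to -2.41 for Igfbp3, from -2.90 to -2.20 for Igfbp6 and from -3.64 to -2.97 for Igfbp7. With it, Igf1r, Igf2r and Igfbp4 reversed to 1.55, 1.80 and 1.62. The 3 calls lower among the 10 genes became 5 with centring on T-cell identity genes, 1 with centring on ID8 tumour genes and 6 on adjusted p alone, and the 0 calls higher became 3 with ID8 centring. For the other pathway genes, the 13 calls lower became 5 at a mean of at least 5 FPKM, 3 with ID8 centring and 24 on adjusted p alone. The 0 calls higher became 1 (Nov) with no filter and 1 (Nov) with voom on the rebuilt reads, 27 with ID8 centring and 7 on adjusted p alone.

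Over all genes, the 2034 calls lower became 903 at a mean of at least 5 FPKM, 3876 with T-cell centring, 169 with ID8 centring and 4603 on adjusted p alone. The 653 calls higher became 311 with a pseudocount of 1, 242 at a mean of at least 5 FPKM, 136 with T-cell centring, 13725 with ID8 centring, 1127 with voom and 4360 on adjusted p alone. Calls lower made up 75.7% of all calls with the deposited FPKM, 64.6% after quantile normalization (median of all genes 0.16), 96.6% with T-cell centring and 1.22% with ID8 centring. The cause of these shifts beyond the changed scale, filter or threshold was not tested.

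Leaving out each library in turn gave 1963 to 2045 genes lower, 579 to 692 higher, 3 to 3 of the 10 genes lower and 0 to 0 higher, and 13 to 13 other pathway genes lower and 0 to 0 higher. The replicate numbers did not pair the libraries (correlations of deviations 0.02, -0.06 and -0.02). With the replicate block there were 2011 genes lower and 651 higher, and the 3 and 13 calls were the same in number. Below about 3 reads a library, as for Igf2 in control, depth limits any comparison.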
